A study of Mus musculus with 16 samples.

Results

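Peaks of monoubiquitinated histone H2A (H2AK119ub1) were set against peaks of trimethylated histone H3 (H3K27me3) in PCGF5-depleted neural precursor cells (NPC) at day 6 of differentiation. Of the 86279 peaks in the 10 peak lists of the series, 3845 were H2AK119ub1 peaks and 14759 were H3K27me3 peaks of these cells, 18604 in all. A peak was counted as carrying both marks when a peak of the other mark overlapped it by at least 1 bp. This split gave 4 classes, with 2863 H2AK119ub1 peaks with H3K27me3, 982 H2AK119ub1 peaks alone, 2239 H3K27me3 peaks with H2AK119ub1 and 12520 H3K27me3 peaks alone.

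The study performed chromatin immunoprecipitation followed by sequencing (ChIP-seq) on 16 libraries of mouse cells, 1 library per group, of which 6 were inputs and were not used here. The cells were embryonic stem cells (ES) with a green fluorescent protein reporter of Sox1, and the NPC made from them in suspension culture. Depleted cells are labelled shPCGF5 and, by the methods of the study, stably carried a short hairpin RNA against Pcgf5 from a lentivirus and were picked as clonal clusters after puromycin selection. Whether wild type cells carried a control vector, and which hairpin was used, is not given in the sources used here. ES were kept on feeder cells with leukemia inhibitory factor and 2i inhibitors. How many clones went into a library is also not given. The groups compared here were PCGF5-depleted NPC with wild type NPC, and PCGF5-depleted ES with wild type ES. Flag-PCGF5 lists came from cells whose own Pcgf5 gene carried a Flag tag. With 1 library per group there was no replicate error and no test of conditions was possible. Intervals are 95% intervals and cover counting error only, with peaks treated as independent counts. The files gave no read totals, so depth is unknown. Peak lists hold no RNA levels, so neither the depletion of PCGF5 nor the neural identity of the cells could be checked by expression.

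Polycomb repressive complex 1 (PRC1) places H2AK119ub1, and Polycomb repressive complex 2 (PRC2) places H3K27me3. Both marks are known from the promoters of silent developmental genes, most of which are rich in CpG dinucleotides, and each complex can recognise the mark of the other. PCGF5 is a subunit of a variant form of PRC1 that can be recruited without H3K27me3.

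The sequences under the peaks differed between the classes, and single examples are printed below. The first 3 are each the central window, of at most 200 bp, of the peak of their class with the highest fold enrichment whose GC content lay within 5 percentage points of the class median and whose window held no untranslated region. All sequences are on the plus strand of mm9, 5′ to 3′, and capitals mark CpG dinucleotides. The H2AK119ub1 example alone (chr2:166267315-166267514) lay in intergenic sequence 140157 bp from the nearest start site, that of Prex1, had a fold of 18.3 and held 1 CpG. The H3K27me3 example with H2AK119ub1 (chr6:88144495-88144694) lay at the promoter of Gata2, a transcription factor gene of blood and neuronal development, within the gene and 709 bp from a start site, had a fold of 10.9 and held 15 CpG. The H3K27me3 example alone (chr6:52214689-52214888) lay in intergenic sequence of the HoxA cluster, 3914 bp from the nearest start site, that of Hoxa13, had a fold of 10.3 and held 2 CpG.
H2AK119ub1 alone, intergenic: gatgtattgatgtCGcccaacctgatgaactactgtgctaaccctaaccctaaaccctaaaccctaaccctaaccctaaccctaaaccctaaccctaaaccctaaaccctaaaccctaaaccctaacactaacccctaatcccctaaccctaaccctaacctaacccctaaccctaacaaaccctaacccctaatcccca
H3K27me3 with H2AK119ub1, Gata2: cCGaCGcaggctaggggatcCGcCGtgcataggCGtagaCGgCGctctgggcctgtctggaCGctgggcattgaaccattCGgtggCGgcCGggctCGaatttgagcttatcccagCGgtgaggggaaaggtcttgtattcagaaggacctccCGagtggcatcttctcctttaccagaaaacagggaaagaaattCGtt
H3K27me3 alone, HoxA cluster: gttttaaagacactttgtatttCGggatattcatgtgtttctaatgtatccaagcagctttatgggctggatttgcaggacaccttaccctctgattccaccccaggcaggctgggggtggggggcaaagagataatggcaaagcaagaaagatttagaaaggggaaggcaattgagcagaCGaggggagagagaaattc

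The example of H2AK119ub1 alone was built largely of tandem copies of CCCTAA, the telomere repeat unit, and further peaks of high fold were looked at for that reason. Below are 138 bp windows, the width of the narrowest H2AK119ub1 peak, at the centres of the next H2AK119ub1 peak alone by fold (chr2:107577580-107577717, fold 14.0, intergenic) and of the H2AK119ub1 peak with H3K27me3 of highest fold at a promoter whose window held no untranslated region (chr12:105711008-105711145, fold 10.8, at a coding exon of the homeobox gene Gsc). Both were chosen after the values were seen.
H2AK119ub1 alone, second by fold: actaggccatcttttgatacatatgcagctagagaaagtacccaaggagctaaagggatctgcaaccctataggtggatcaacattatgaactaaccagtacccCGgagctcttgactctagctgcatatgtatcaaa
H2AK119ub1 with H3K27me3, Gsc: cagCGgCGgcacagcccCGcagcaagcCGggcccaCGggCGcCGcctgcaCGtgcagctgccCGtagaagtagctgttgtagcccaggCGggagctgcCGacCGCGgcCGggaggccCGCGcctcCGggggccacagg
The Gsc window held 17 CpG and the other held 1. Neither was repetitive by the measure below (97.0% distinct words in each), while the CCCTAA example was (25.6%). For H2AK119ub1 with H3K27me3 the rule of the first examples gave another window, not printed here. That window was repetitive too (30.8%) and held 0 CpG.

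The class of H2AK119ub1 alone was in large part repetitive sequence. Repetitiveness was measured as the number of distinct 6-base words among the 133 word positions of the central 138 bp, and a peak under 50% was called repetitive, a limit set after the data were seen. Of the 982 H2AK119ub1 peaks alone, 530 were repetitive, which is 54.0% (Wilson interval 50.8 to 57.1). The share was 8.38% (7.42 to 9.45) of the H2AK119ub1 peaks with H3K27me3, 9.02% (7.90 to 10.3) of the H3K27me3 peaks with H2AK119ub1 and 7.88% (7.42 to 8.37) of the H3K27me3 peaks alone. All 4 shares were above the 1.01% (0.894 to 1.14) of 25557 genome windows placed every 100 kb and the 0.139% of windows at gene start sites. The median H2AK119ub1 peak alone held 45.1% distinct words, against 94.0% in the class with H3K27me3, so the difference was not limited to a few peaks near the 50% limit. Among the 20 H2AK119ub1 peaks alone of highest fold, 18 were repetitive, and among the top 100 of that class 79 were. With H3K27me3 the counts were 5 of the top 20 and 18 of the top 100. The 5 included the peaks of highest fold in that class (13.20, 10.89 and 10.80).

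**Figure D1:**
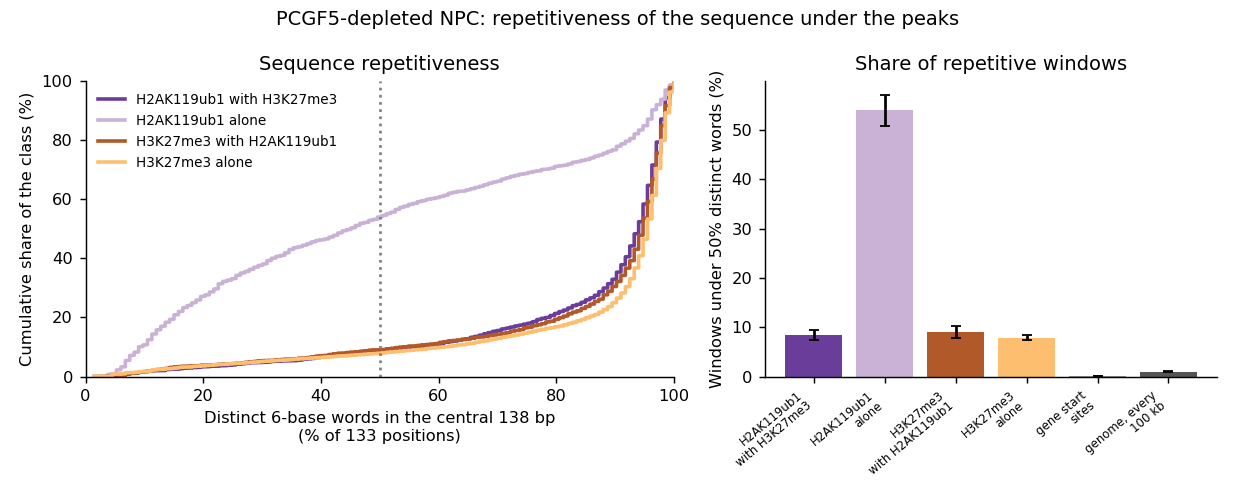
Left, cumulative share of each peak class (%) by the distinct 6-base words in the central 138 bp (% of 133 positions), with the dotted line at 50%; right, share of windows under 50% (%) in each class, at gene start sites and in genome windows every 100 kb, with 95% Wilson intervals as bars. The curve of H2AK119ub1 alone lies apart from the other 3 classes, with 54.0% of its windows under the line against 7.88% to 9.02%.

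Runs of AG were the most frequent of 3 motifs searched in H2AK119ub1 peaks alone. At least 4 tandem copies of AG (or CT, the same on the other strand) lay in the central 138 bp of 30.1% of the H2AK119ub1 peaks alone, against 8.59% with H3K27me3 and 2.58% of genome windows of that length. For 4 copies of CA (or TG) the shares were 14.3%, 10.9% and 4.36%, and the 2 motifs can lie in the same window. At least 2 copies of the telomere unit TTAGGG (or CCCTAA) were found in 7 peaks alone (0.713%), 9 with H3K27me3 (0.314%) and 0 genome windows. In wild type NPC the H2AK119ub1 peaks alone were repetitive in 47.3% (44.4 to 50.3) of 1075 peaks, with CA in 45.1% and AG in 14.8%. In ES the contrast was small or reversed, with 21.7% of the H2AK119ub1 peaks alone and 19.9% of those with H3K27me3 in PCGF5-depleted ES, and 10.8% and 21.1% in wild type ES.

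Peaks of the 2 kinds of sequence lay in different places. Of the 530 repetitive H2AK119ub1 peaks alone, 23 lay at a promoter (4.34%), against 128 of the other 452 (28.3%). A peak was placed at a promoter when its centre lay 2500 bp or less from where a protein-coding transcript begins (GENCODE M1). The nearest H3K27me3 peak was a median of 123613 bp away from the repetitive peaks and 14168 bp away from the others. Median fold was 5.37 and 4.57. Only 41 of the 530 (7.74%) were overlapped by an H2AK119ub1 peak of wild type NPC, and 36 of the other 452 (7.96%), so few peaks of either kind recurred in wild type NPC. In the H2AK119ub1 list of depleted ES the shares were 19.1% (15.9 to 22.6) of the repetitive peaks and 9.29% (6.95 to 12.3) of the others. When repetitive peaks were left out of both lists, the share of H2AK119ub1 peaks overlapped by H3K27me3 was 84.3% (82.9 to 85.5), where all peaks gave 74.5% (73.1 to 75.8).

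H2AK119ub1 lay mostly inside broader H3K27me3. Under both marks lay 880 kb, which was 78.3% of the base pairs of H2AK119ub1 and 10.8% of those of H3K27me3. Of the 2863 H2AK119ub1 peaks with H3K27me3, 2210 (77.2%) lay wholly within H3K27me3 peaks, while only 77 H3K27me3 peaks lay wholly within H2AK119ub1 peaks. The median H3K27me3 peak with H2AK119ub1 was covered over 35.0% of its width. Of these H3K27me3 peaks 1805 held 1 H2AK119ub1 peak, 280 held 2 and 154 held 3 or more. The most, 7 peaks, lay in an H3K27me3 peak of 6330 bp near Lhx5, a LIM homeobox gene of the early forebrain (chr5:120884506-120890835, fold 8.59).

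**Figure D2:**
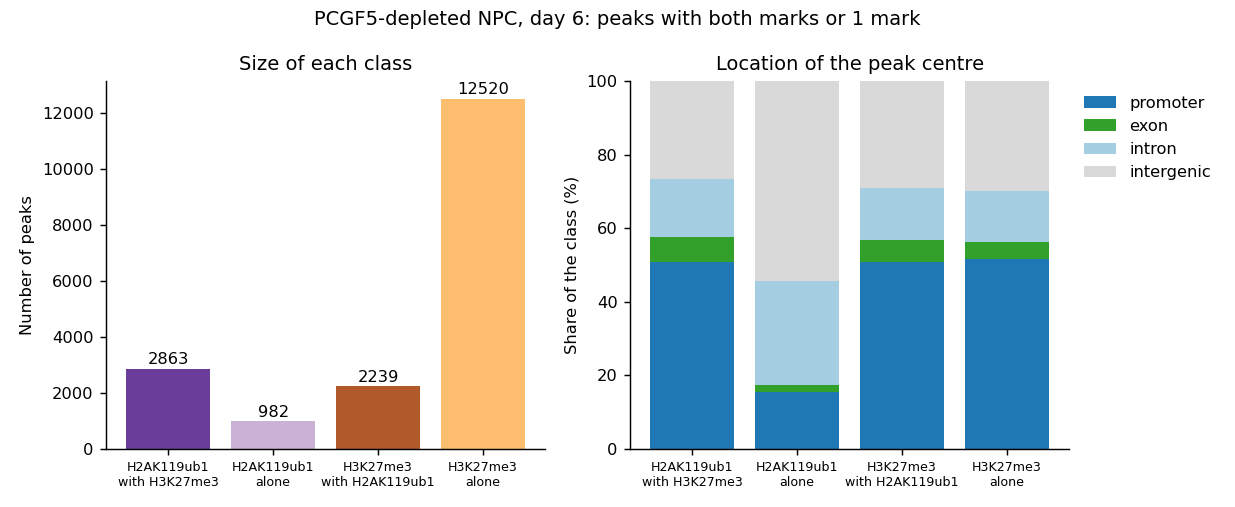
Left, number of peaks in each of the 4 classes; right, share of each class (%) whose centre lay at a promoter, in an exon, in an intron or between genes. H2AK119ub1 alone, the smallest class with 982 peaks, is the one with the small promoter share (15.4%), while the other 3 lie between 50.7% and 51.7%.

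H2AK119ub1 peaks at promoters nearly all carried H3K27me3. Of 1603 H2AK119ub1 peaks at promoters 90.6% (89.1 to 91.9) were overlapped, and of 218 in exons 91.3% (86.8 to 94.3), against 61.6% (58.0 to 65.1) of 727 in introns and 58.9% (56.2 to 61.6) of 1297 between genes. Put the other way, 50.7% of the H2AK119ub1 peaks with H3K27me3 and 15.4% (13.3 to 17.8) of those alone lay at promoters, a difference of 35.3 percentage points (Newcombe interval 32.3 to 38.1). The difference was 25.4 points (20.7 to 29.7) without repetitive peaks. Of the peaks alone 54.3% lay between genes. For H3K27me3 no such difference was seen, since 50.9% of the peaks with H2AK119ub1 and 51.7% of those alone lay at promoters, a difference of -0.85 points (-3.10 to 1.39), and the overlapped share was 15.0% at promoters and 14.8% between genes. This difference depended on the definition, being -11.6 points when the overlap had to cover 50% of the peak and 4.15 points when peaks within 1000 bp were merged.

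Width separated the classes more than fold enrichment did. H2AK119ub1 peaks with H3K27me3 had a median width of 243 bp (interval 238 to 250, quartiles 172 and 371), and those alone 164 bp (160 to 168, quartiles 140 and 213). H3K27me3 peaks with H2AK119ub1 had a median of 849 bp (809 to 895), and those alone 329.5 bp (325 to 334). The fold, the enrichment over background in the seventh column of the lists, had a median of 4.91 in both H2AK119ub1 classes. It was 4.79 (4.72 to 4.91) for H3K27me3 with H2AK119ub1 and 4.01 (4.01 to 4.02) for H3K27me3 alone. Wider peaks have more bases in which an overlap can occur, so the 1 bp rule itself favours wide peaks in the classes with both marks. When the overlap had to cover 50% of the peak, the log2 ratio of median H3K27me3 width, with H2AK119ub1 to alone, fell from 1.37 to 0.16. For H2AK119ub1 that ratio was 0.57 and 0.56. The shares were also taken in 5 equal parts of each list, which describes the dependence on width but does not remove it. From the narrowest to the widest part of the H3K27me3 peaks the overlapped share was 4.44%, 6.44%, 8.37%, 14.2% and 42.4%, and for H2AK119ub1 it was 53.1%, 63.7%, 73.6%, 85.4% and 96.5%. In the widest part of H3K27me3 (733 to 7216 bp) the median fold was 5.38 with H2AK119ub1 and 4.77 alone. In the narrowest (180 to 225 bp) the order was the opposite, with 3.55 and 3.86, as it was in the middle part, with 3.85 and 3.98. In all 5 parts by score the H3K27me3 fold was lower with H2AK119ub1 than alone. It went from 2.76 and 3.15 in the lowest part to 5.79 and 5.80 in the highest. The score and the fold measure the same enrichment of the same peak, so this comparison cannot show whether fold differs between the classes. In 5 equal parts by score the share of H2AK119ub1 stayed between 71.1% and 79.2%, whereas that of H3K27me3 went from 3.76% to 43.1%.

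**Figure D3:**
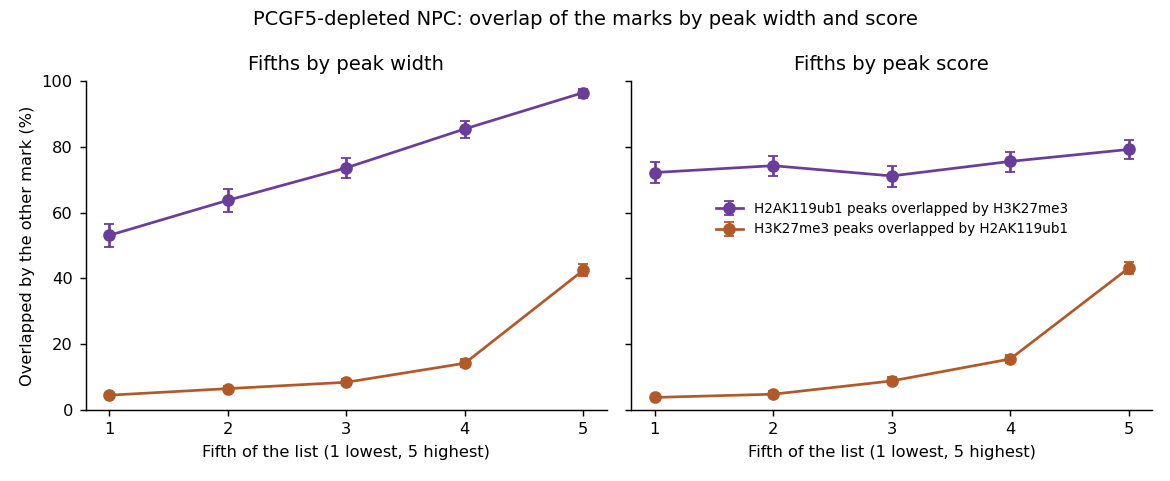
Share of peaks overlapped by the other mark (%) in 5 equal parts of each list, ordered by width on the left and by score on the right, with 95% Wilson intervals as bars. Both marks have a higher share in wider peaks, while by score the H2AK119ub1 points lie between 71.1% and 79.2% and the H3K27me3 points go from 3.76% to 43.1%.

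Peaks alone were seldom just beside the other mark. Of the 982 H2AK119ub1 peaks alone, 163 (16.6%) had H3K27me3 within 1 kb and 410 (41.8%) had none within 100 kb, and the median gap was 63321 bp. In wild type NPC the median gap of H2AK119ub1 alone was 5937 bp, with 33.9% of 1075 peaks within 1 kb and 26.9% beyond 100 kb. The 289 peaks within 10 kb of H3K27me3 in depleted NPC lay at promoters in 33.2%, and the 410 beyond 100 kb in 6.83%. H3K27me3 peaks alone had a median gap of 70472 bp to H2AK119ub1.

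Peaks with both marks were richer in CpG. In the central 200 bp the median number of CpG was 8 in H2AK119ub1 peaks with H3K27me3 and 0 in those alone, of which 51.8% held no CpG at all. H3K27me3 peaks held a median of 6 with H2AK119ub1 and 3 alone, and windows at gene start sites held 10. Median GC content was 58.2% (quartiles 51.4 and 66.7) and 50.0% (45.7 and 56.3) for H2AK119ub1 with and without H3K27me3, 56.0% and 52.8% for the same H3K27me3 classes, and 41.8% for the genome. The observed over expected CpG ratio had medians of 0.56 and 0 for H2AK119ub1 and 0.51 and 0.31 for H3K27me3. Among peaks at promoters, H2AK119ub1 peaks held a median of 11 CpG (interval 10 to 12) with H3K27me3 and 6 (4 to 10) without it, intervals that meet at 10. H3K27me3 peaks at promoters held 8 with H2AK119ub1 and 4 alone. Neither peak width nor repetitive sequence was held fixed in these comparisons, and their part in them was not tested. Of the H2AK119ub1 peaks alone 54.0% were repetitive, against 8.38% of those with H3K27me3.

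A small number of crowded windows held many of the peaks with both marks. In 10 windows of 1 Mb there were 30 or more H2AK119ub1 peaks, and together they held 20.6% of the H2AK119ub1 peaks with H3K27me3 but 3.56% of those alone. The 4 Hox clusters were among them, with 72 H2AK119ub1 peaks at HoxA, 67 at HoxB, 56 at HoxC and 48 at HoxD, as was the window of Lhx5, Tbx3 and Tbx5 with 40. The other 5 windows had under 20% of their H2AK119ub1 peaks at the promoter of a gene with more than a provisional Gm name. On chromosome 6, 104 peaks lay between 114081089 and 114920165 (97 with H3K27me3, nearest genes including Atg7 and Hrh1), and only 2 at a promoter. On chromosome 8, 104 peaks lay between 126036448 and 126709103 (102 with H3K27me3, nearest genes Gas8 and Rhou), and on chromosome 6, 58 lay between 47601626 and 47924447 (57 with H3K27me3, near Ezh2, Pdia4 and Zfp956), 0 of them at a promoter. These 3 blocks held from 16 to 167 peaks in each of the 8 histone lists and were thus present in all 4 cell populations.

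The last 2 windows were of another kind. The first sequenced bases of chromosome 9 in the assembly (2999983 to 3038301) held 43 H2AK119ub1 peaks, 42 with H3K27me3, over provisional genes such as Gm10716. Their median GC content was 35.2%, and the H3K27me3 peaks there had a median fold of only 1.64. Wild type NPC had 19 H2AK119ub1 and 36 H3K27me3 peaks in this window. Depleted ES had 22 and 0, and wild type ES had 0 and 0. The window of the Y chromosome from 2095736 to 2897691 held 34 H2AK119ub1 peaks, and its H3K27me3 peaks had a median fold of 1.81. Wild type NPC had 0 H2AK119ub1 and 1 H3K27me3 peaks there. Wild type ES had 3 and 13, and depleted ES 9 and 0. Without these 5 windows the overlapped share of H2AK119ub1 was 72.5% (71.0 to 74.0) and that of H3K27me3 13.9% (13.3 to 14.5), against 15.2% with them.

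Peaks with both marks recurred in the other 6 histone lists more often than peaks alone. Of the H2AK119ub1 peaks with H3K27me3, 87.1% (85.9 to 88.3) were overlapped by H3K27me3 and 53.7% (51.9 to 55.5) by H2AK119ub1 of wild type NPC, while for H2AK119ub1 alone the shares were 21.6% (19.1 to 24.3) and 7.84% (6.32 to 9.69). Of the 2863, 1497 (52.3%) carried both marks in wild type NPC, 998 (34.9%) H3K27me3 only, 41 (1.43%) H2AK119ub1 only and 327 (11.4%) neither. Of the 982 alone, 736 (74.9%) carried neither mark in wild type NPC, and 34 (3.46%) were H2AK119ub1 alone there too. H3K27me3 peaks with H2AK119ub1 were in the wild type NPC H3K27me3 list in 85.9% and those alone in 54.8% (53.9 to 55.7). Of the 12520 alone, 1916 (15.3%) carried both marks in wild type NPC. The classes with both marks were also wider, and the part of width in this result was not tested. The Flag-PCGF5 list of NPC overlapped 6.22% (5.39 to 7.16) of the H2AK119ub1 peaks with H3K27me3 and 3.26% (2.32 to 4.56) of those alone. For the much shorter Flag-PCGF5 list of ES the shares were 0.349% (0.190 to 0.642) and 1.02% (0.554 to 1.86). Each share rests on 10 peaks, and the intervals overlap, so no order is read from them.

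**Figure D4:**
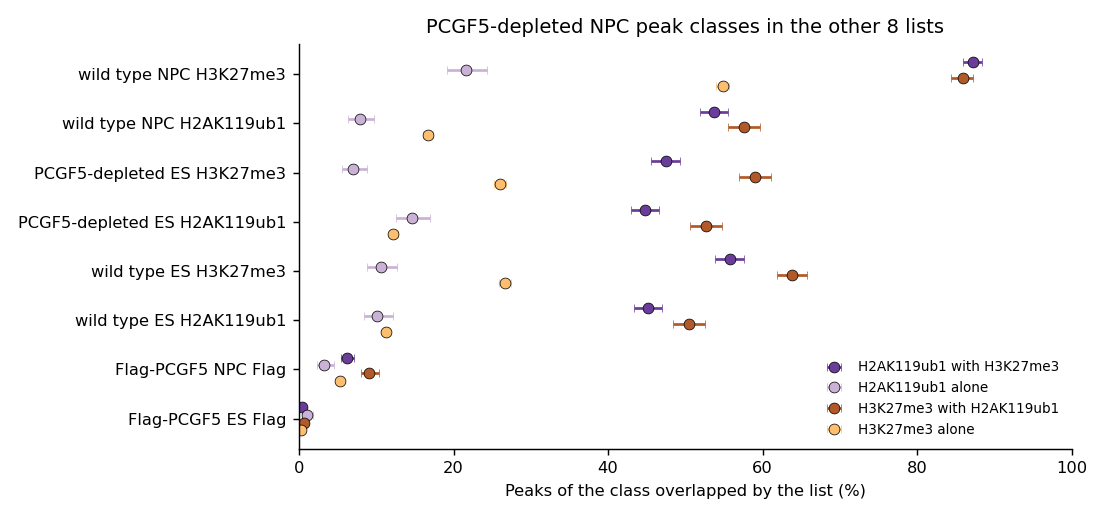
Share of the peaks of each class (%) overlapped by at least 1 bp by each of the other 8 lists, with 95% Wilson intervals as bars. The classes with both marks lie to the right of the classes alone in all 6 other histone lists, and the largest share is 87.1% in wild type NPC H3K27me3.

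Compared in the same way, the 4 cell populations differed in how often the marks met. The overlapped share of H3K27me3 peaks was 15.2% (14.6 to 15.8) in PCGF5-depleted NPC, 25.5% (24.7 to 26.3) in wild type NPC, 18.4% in PCGF5-depleted ES and 27.4% in wild type ES. For H2AK119ub1 peaks the order of stages was the opposite, with 74.5% in depleted NPC and 81.3% in wild type NPC against 27.6% in depleted ES and 38.8% in wild type ES. The promoter share of H2AK119ub1 peaks with H3K27me3 exceeded that of peaks alone by 35.3 points in depleted NPC, 26.7 (23.9 to 29.4) in wild type NPC, 16.4 in depleted ES and 19.5 in wild type ES. For H3K27me3 the promoter share was lower with H2AK119ub1 in wild type NPC, by a difference of -12.9 points (-15.0 to -10.8), where depleted NPC gave -0.85. List lengths differed as well, and with 1 library each these differences cannot be told apart from differences between libraries.

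At the level of genes, H2AK119ub1 without H3K27me3 was rare. Of 22232 protein-coding genes, 859 had both marks at a promoter (3.86%), 69 had H2AK119ub1 alone (0.31%) and 2575 had H3K27me3 alone (11.6%). Genes with both marks had a median of 2459 bp of H3K27me3 in their promoter windows (quartiles 1472 and 3556), against 693 bp for H3K27me3 alone, and a median of 295 bp under both marks. In 56 of the 859 the marks shared no base there. Base pairs of a gene were summed over the windows of 2500 bp to either side of all its start sites. Genes with more start sites therefore offered more bases, and the number of start sites was not held fixed. In wild type NPC 540 of the 859 (62.9%, 59.6 to 66.0) also had both marks, 256 (29.8%) had H3K27me3 alone and 48 (5.59%) had neither. Of the 69 genes with H2AK119ub1 alone, 42 (60.9%) had neither mark in wild type NPC and 3 had H2AK119ub1 alone. Of the 2575 with H3K27me3 alone, 442 (17.2%) had both marks in wild type NPC and 1410 (54.8%) H3K27me3 alone. Flag-PCGF5 peaks of NPC lay at the promoters of 25.5% (22.7 to 28.5) of the genes with both marks, 516 of the 2575 (18.5% to 21.6%) with H3K27me3 alone and 12.3% (11.9 to 12.8) of those with neither.

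The genes with most bases under both marks, summed over all their start sites, were developmental regulators and the provisional genes at the start of chromosome 9. Hoxd3 (chr2:74549986-74586331), a Hox factor of body axis patterning, led with 4584 bp under both marks, 18 H2AK119ub1 and 17 H3K27me3 peaks, and folds of up to 10.8 and 8.75. Its windows held 4708 bp of H2AK119ub1, where wild type NPC had 19339 bp, and 19936 bp of H3K27me3 against 22947 bp. The whole H2AK119ub1 list was also shorter, with 3845 peaks against 5754 in wild type NPC. Its peaks with H3K27me3 covered 936 kb against 2111 kb, and its peaks alone 188 kb against 222 kb. Pax2 (chr19:44830539-44912758), a paired box factor of kidney, eye and midbrain development, had 3548 bp under both marks, and Nkx1-1 3454 bp. At these genes H2AK119ub1 was nearer to wild type NPC, with 3710 against 4209 bp at Pax2 and 3491 against 4144 bp at Nkx1-1. Skor1, a corepressor gene of dorsal spinal cord neurons, had 2913 bp, and Zic4, a zinc finger factor of cerebellar development, 2762 bp. The H2AK119ub1 of Zic4 covered 2959 bp, against 9254 bp in wild type NPC, while H3K27me3 covered 14143 and 14881 bp. The other 5 of the top 10 were Gm10716, Gm17535, Gm10717, Gm10106 and Gm10721 of the chromosome 9 window, with 2804 to 3358 bp under both marks and H3K27me3 folds of 1.78 to 1.90.

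The 10 genes of highest fold with H2AK119ub1 alone had mixed roles. Hc, the complement component C5 gene, led with a fold of 10.2, followed by Etfa, an electron transfer protein of mitochondria, at 9.69, Islr at 8.10 and Phpt1 at 7.41. Of these the Phpt1 peak did overlap H3K27me3, by 181 bp, but the centre of that H3K27me3 peak lay outside the window. Gm10471, Gm3358, Ifna6, Mlycd, 0610010O12Rik and Il16 had folds of 6.33 to 6.53. The peaks of Hc (13.5% distinct words), Etfa (33.8%), Islr (16.5%), Gm10471 (13.5%), Ifna6 (27.1%), Mlycd (27.8%) and Il16 (45.9%) were repetitive, as were all promoter H2AK119ub1 peaks of 18 of the 69 genes. Without repetitive peaks 54 genes had H2AK119ub1 alone. Among the others on the list of 69 were Efnb2, Epha2 and Sema5a, signals and receptors of axon guidance, with folds of 4.35, 4.43 and 3.63.

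Among genes with H3K27me3 alone, Pcdha11 of the clustered protocadherins, neuronal adhesion proteins, had the largest sum over start sites. It had 8515 bp in 17 peaks and 0 bp of H2AK119ub1. Col8a2, a collagen gene, followed with 5277 bp and Smarcd3, a subunit of a chromatin remodelling complex, with 4435 bp. Adamtsl5, Tradd, Ush1g, Nab2, 4930447C04Rik, Plekhh3 and Lrg1 had 3790 to 4155 bp. Of these 10 genes, Adamtsl5, Tradd, 4930447C04Rik and Plekhh3 had both marks in wild type NPC, with 163 to 1267 bp of H2AK119ub1. Nab2, a corepressor of early growth response factors, had 3905 bp of H3K27me3 in depleted NPC and 754 bp in wild type NPC.

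Among 28 gene lists, those of the Dlx, Irx, Hox, LIM, Nkx and Pax families had both marks most often. All 6 Dlx genes, some of which specify forebrain interneurons, and all 6 Irx genes had both marks. The same was true of 35 of 39 Hox genes (89.7%), 10 of 12 LIM homeobox genes (83.3%), 11 of 14 Nkx genes (78.6%) and 7 of 9 Pax genes (77.8%), beside 3.86% of all genes, and the remaining marked members had H3K27me3 alone. Each of these lists had 0 genes with H2AK119ub1 alone. Dlx1 had 1718 bp under both marks, Lmx1b 2227 bp, Lhx1 1897 bp and Pax6, the eye and forebrain factor, 2259 bp. Pax6 had 13796 bp of H3K27me3 and 2308 bp of H2AK119ub1 in its windows, against 17888 and 10494 bp in wild type NPC. The whole H2AK119ub1 list of wild type NPC was also longer. Lhx5, whose 6330 bp H3K27me3 peak is described above, had 1505 bp under both marks. In wild type NPC, where 4.73% of all genes had both marks, the counts were 38 of 39 for Hox, 11 of 12 for LIM, 12 of 14 for Nkx, 8 of 9 for Pax, 6 of 6 for Dlx and 5 of 6 for Irx. Other members had more H2AK119ub1 in depleted NPC, as Irx5 with 1185 bp against 277 bp and Nkx6-2 with 1518 bp against 595 bp.

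Other transcription factor families followed. Both marks were found at 4 of 6 GATA genes, 6 of 9 neural POU genes, 8 of 16 T-box genes, 8 of 16 proneural basic helix-loop-helix genes, 8 of 18 Sox genes, 16 of 43 forkhead genes and, among 6 sine oculis homeobox genes, at Six3 and Six2. Gata2 had 2061 bp under both marks and the highest H3K27me3 fold of the GATA genes, 10.9. Olig2, an oligodendrocyte and motor neuron factor, had 1703 bp under both marks and Neurog1 1084 bp. Foxf1a had 2712 bp and Foxb2 2025 bp. Tbx3 had 2279 bp under both marks in depleted NPC and neither mark in depleted ES. Wild type cells had the same pair, with both marks in NPC and neither in ES.

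Over all genes H3K27me3 alone was more frequent than both marks (11.6% against 3.86%), and the lists of signalling genes other than Wnt ligands had the same order. Wnt ligands had both marks in 10 of 19 genes and H3K27me3 alone in 8, with 1223 bp under both marks at Wnt7b, which signals in the developing forebrain, and 627 bp at Wnt1, which acts at the midbrain border. FGF ligands had both marks in 5 of 22 and H3K27me3 alone in 11, BMP ligands and antagonists in 6 and 11 of 28, and Notch ligands with Hes and Hey targets in 4 and 8 of 18. Hes3, a Notch effector of neural stem cells, held the H3K27me3 peak of highest fold among those with H2AK119ub1, 14.2 over 1197 bp (chr4:151662977-151664173, at the promoter), which was overlapped in all 6 of the other histone lists and whose central window was repetitive (15.0% distinct words). In the Nodal and Smad2 pathway 2 of 22 genes had both marks, among them Inhbb, an activin subunit gene, with 539 bp, and 7 had H3K27me3 alone. Retinoic acid genes had both marks in 2 of 16, namely Cyp26b1 and Cyp26a1, which break down retinoic acid.

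Lists of neuronal and structural genes also had the order of all genes. Potassium channel genes had both marks in 19 of 92 (20.7%) and H3K27me3 alone in 38, neurotransmitter receptor genes in 12 and 37 of 92, axon guidance genes in 15 and 25 of 71 and collagen genes in 5 and 13 of 43. Clustered protocadherins had H3K27me3 alone in 15 of 24 and both marks in Pcdhgc5, Pcdhb21 and Pcdha3, where wild type NPC had both marks in 0 of 24. Clustered protocadherin transcripts share sequence, so these genes are not independent. Of 26 Polycomb genes, 2 had both marks, among them Cbx8 with 559 bp, and 5 had H3K27me3 alone. Of 16 pluripotency genes, Tbx3, Esrrb, Prdm14 and Klf2 had both marks. Of 83 ribosomal protein genes and 67 replication-dependent histone genes, which dividing cells express, 0 had both marks, and Rpl38, Hist1h2af and Hist1h3g had H2AK119ub1 alone. The last 2 share 1 peak.

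**Figure D5:**
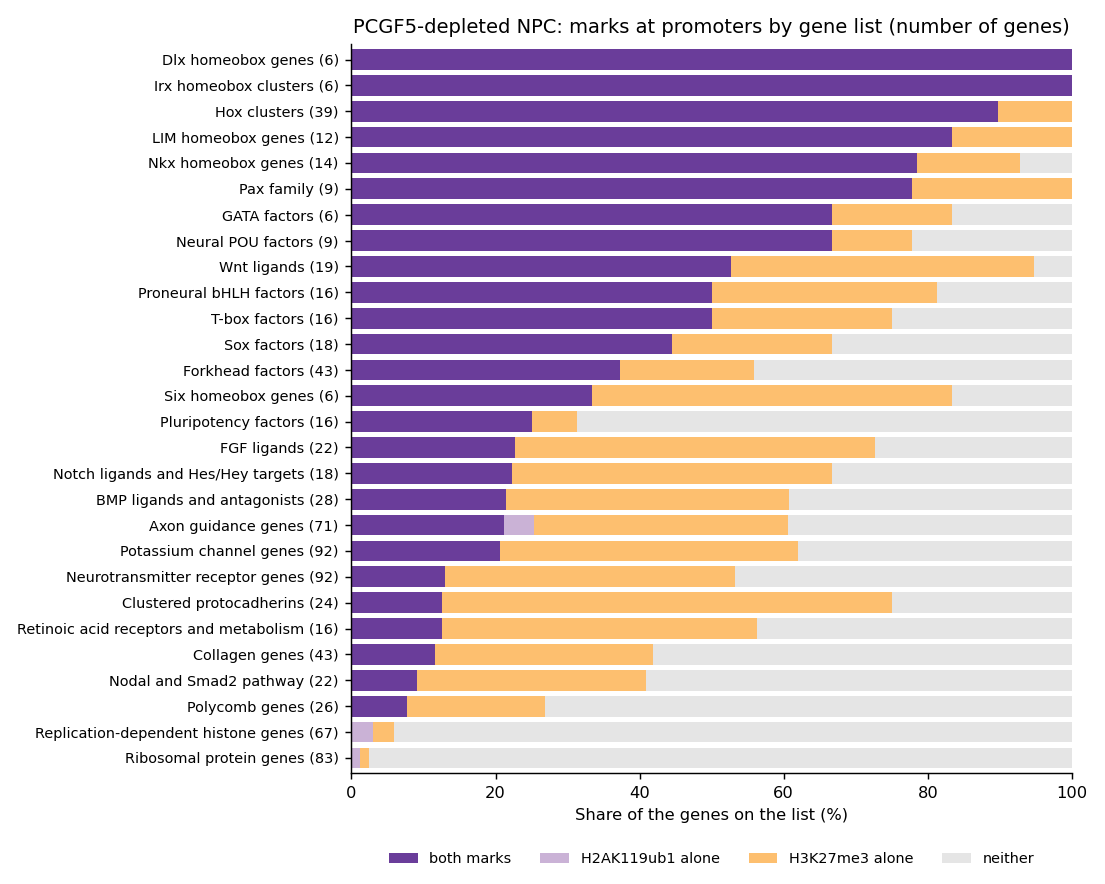
Share of the genes on each of 28 lists (%, number of genes in parentheses) with both marks, H2AK119ub1 alone, H3K27me3 alone or neither at a promoter in PCGF5-depleted NPC. Dlx, Irx and Hox genes stand at the top with 100%, 100% and 89.7% of genes with both marks, while ribosomal protein and histone genes have 0.

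Markers of cell type were read for their marks only. Of the neural markers, Nes, an intermediate filament gene of neural progenitors, had 354 bp under both marks within 2670 bp of H3K27me3, and Pou3f2 751 bp within 3510 bp. Both genes had H3K27me3 alone in wild type NPC. Cdh2 had 208 bp of H2AK119ub1 and 1153 bp of H3K27me3 without a shared base, and neither mark in wild type NPC. Other neural markers had fewer marked bases than in wild type NPC. Tubb3, a neuronal tubulin gene, had H3K27me3 alone in both populations, over 660 bp against 1922 bp in wild type NPC. Pax6 had both marks in both populations. It had 2308 against 10494 bp of H2AK119ub1 and 13796 against 17888 bp of H3K27me3. Sox1 had no protein-coding entry in the annotation. Of the pluripotency markers Pou5f1, Nanog and Zfp42 had neither mark and Klf4 H3K27me3 alone. Of the markers of other lineages Gata4, Gata6, Sox17 and Foxa2 had both marks, with 288 to 1445 bp under both, and T, the brachyury gene of mesoderm, had H3K27me3 alone over 2703 bp. H2AK119ub1 covered fewer bases than in wild type NPC at Gata4 (909 against 3912 bp), Gata6 (1115 against 2763 bp) and Sox17 (407 against 1825 bp), and slightly more at Foxa2 (1685 against 1544 bp). The whole H2AK119ub1 list was shorter too, with 3845 peaks against 5754 in wild type NPC. Nodal, Lefty1 and Lefty2, a ligand and its inhibitors, and Pcgf5 itself had neither mark in depleted NPC, where wild type NPC had H3K27me3 alone over 698 to 1638 bp of them.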

How the data were processed

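Reads were trimmed by the authors, those under 36 bp were dropped, and the remainder was mapped on mm9 using Bowtie2. Duplicates were removed, and MACS2 2.1.0 was run on single libraries without pooling. Histone mark chromatin was digested with micrococcal nuclease. The deposited lists give each peak a score (10 times its −log10 p-value, rounded down), a fold enrichment over background, and −log10 p- and q-values. These values describe peaks within 1 library. In the H2AK119ub1 list 127 peaks (3.30%) had a q-value above 0.05, and in the H3K27me3 list 0. Coordinates are mm9, counted from 1, and sequence came from the same assembly (NCBIM37). Overlaps, locations, repetitiveness and intervals were computed in Python 3.11.15 (pandas 2.3.3, numpy 2.4.6, scipy 1.17.1), tested on simulated data, and overlaps were checked against bedtools 2.31.1. Shares carry Wilson, differences Newcombe and medians order-statistic intervals. Members, gene lists and alternatives were chosen with earlier results of these data known.

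Named genes were, for both marks, the 10 with most base pairs under both, for H2AK119ub1 alone the 10 of highest fold, for H3K27me3 alone the 10 with most base pairs, plus markers, genes the study names and up to 4 examples per list. Named peaks were those of highest fold in each class. Alternatives were another overlap rule, stricter or equal lists, merged peaks and other promoter definitions. Leaving out crowded windows or repetitive peaks was added after seeing the data. Sequence from 1 chromosome was not considered for printing, and some named genes and sequences are not reported here.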

Additional observations from a re-analysis of the deposited data

How the results depend on the processing

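Of 103 recalculated values 49 kept within the interval of the reported value (for gene counts, within 1.5 times) and 54 did not, and 0 reversed a difference whose interval left out 0. Shares below are of H2AK119ub1 and then H3K27me3 peaks overlapped, promoter differences and log2 ratios are of peaks with both marks against alone, and causes were not tested. Requiring 50% of the peak gave shares of 72.0% and 5.06%, promoter differences of 32.2 and -11.6 points, and H3K27me3 log2 ratios of 0.16 for width and 0.041 for fold. Allowing 1000 bp gave 78.7% and 26.0%, 41.3 points, 0.87 for H3K27me3 width, and -0.059 and 0.18 for fold. The higher-scoring 50% gave 69.6%, 30.5 points, 0.86 and 1.21 for width, 0.11 for H3K27me3 fold, 473 genes with both marks and 45 with H2AK119ub1 alone. An H3K27me3 list as short as that of H2AK119ub1 gave 53.5% and 37.9%, 22.7 points, 1.03 for H3K27me3 width, 0.036 and 0 for fold, 249 genes with H2AK119ub1 alone and 770 with H3K27me3 alone, so the share of H2AK119ub1 peaks counted as alone depended on the length of the H3K27me3 list. Merging peaks gave 67.3% and 17.7%, 4.15 points for H3K27me3, 0.76 and 2.87 for width, 0.035 and 0.37 for fold, and 164 genes with H2AK119ub1 alone. A 1000 bp promoter gave 19.9 points for H2AK119ub1, and any base within 2500 bp 1.54 points for H3K27me3. A q-value of at most 0.05 left all 11 results within these limits. Without 5 crowded windows, shares were 72.5% and 13.9%, promoter differences 40.1 and 2.33 points, and H3K27me3 ratios 1.46 for width and 0.31 for fold. Without repetitive peaks the values were 84.3%, 25.4 points, 1.49 for H3K27me3 width and 0.066 for H2AK119ub1 fold. Without both they were 83.1% and 13.4%, 30.1 and 4.34 points, 1.62 for width, and 0.091 and 0.33 for fold. The promoter difference of H3K27me3 thus had no stable sign. No paired analysis was possible because each group had 1 library, and no library could be left out. Depth is unknown, so a peak absent from a list is not shown to lack the mark.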
